A study of Mus musculus with 12 samples.

Results

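The phagocyte NADPH oxidase, also called the NOX2 complex, was followed in mouse liver through 5 genes: Cybb, Cyba, Ncf1, Ncf4 and Rac2. They were chosen by symbol, and all 5 were found among the 56923 gene IDs of the count table, as Cybb (ENSMUSG00000015340), Cyba (ENSMUSG00000006519), Ncf1 (ENSMUSG00000015950), Ncf4 (ENSMUSG00000071715) and Rac2 (ENSMUSG00000033220). RNA of whole liver was sequenced from 12 wild-type (WT) C57BL/6J mice, given in the labels as biological replicates, 3 in each of 4 groups. All of them carried the same injury: from 6 weeks of age they were injected in the peritoneum with carbon tetrachloride (CCl4), a hepatotoxin that scars the liver on repeated dosing. Each injection was 200 µL of olive oil with 7.5% CCl4, and 2 were given per week over 6 weeks. Control mice received CCl4 only. The low, medium and high groups also had curcumin, the yellow polyphenol of turmeric, by gavage every day for 2 weeks at 25, 50 and 100 mg/kg. The labels do not say whether control mice were gavaged, mice were housed 3 to a cage, so that cage and group may coincide, and no liver without CCl4 was analysed here. The title of the series names the receptor Slamf8 and TNF/NF-κB signalling, and Slamf8 is known in mouse macrophages as a brake on this oxidase.

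The oxidase moves electrons from cytosolic NADPH across a membrane onto oxygen, which makes superoxide. In resting neutrophils and macrophages its membrane part, the catalytic subunit encoded by Cybb bound to the smaller subunit encoded by Cyba, is kept apart from its cytosolic partners, among them the proteins of Ncf1 and Ncf4, and all of these meet with the GTPase Rac when a phagocyte is triggered. In liver the complex is best known from Kupffer cells and infiltrating neutrophils, which use it against microbes and whose oxidants are one of the sources of stress in chronic injury.

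Promoter windows of Cybb, Cyba and Ncf1 are shown, 3 of the 5 members having matched the table used. Cybb and Cyba, the partners in the membrane, had the lowest SD of the log2 ratio among the members across livers (0.32). It was barely below that of Ncf4 and Rac2 (0.34) and of Cybb and Rac2 (0.35), which are not membrane pairs. The myeloid transcription factor PU.1 (gene Spi1) is a known activator of Cybb and Ncf1. Each window runs from 250 bases before to 30 bases after the annotated start in RefSeq, build GRCm38.p6, on the minus strand, written 5′ to 3′: chrX:9469295-9469574 for Cybb, chr8:122432911-122433190 for Cyba and chr5:134229596-134229875 for Ncf1. Capitals mark the letters GAGGAA, a motif of PU.1 sites, or the same motif read on the opposite strand (TTCCTC).
Cybb: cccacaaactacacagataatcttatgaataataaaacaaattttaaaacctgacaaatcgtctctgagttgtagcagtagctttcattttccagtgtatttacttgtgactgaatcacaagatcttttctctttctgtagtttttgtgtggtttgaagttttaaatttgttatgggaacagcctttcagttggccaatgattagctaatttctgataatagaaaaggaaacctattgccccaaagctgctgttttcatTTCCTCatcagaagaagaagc
Cyba: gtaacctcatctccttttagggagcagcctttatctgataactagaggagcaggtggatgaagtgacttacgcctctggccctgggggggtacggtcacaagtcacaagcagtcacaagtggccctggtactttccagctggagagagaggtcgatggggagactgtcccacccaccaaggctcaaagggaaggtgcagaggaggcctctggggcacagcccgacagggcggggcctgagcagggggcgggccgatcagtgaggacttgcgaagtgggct
Ncf1: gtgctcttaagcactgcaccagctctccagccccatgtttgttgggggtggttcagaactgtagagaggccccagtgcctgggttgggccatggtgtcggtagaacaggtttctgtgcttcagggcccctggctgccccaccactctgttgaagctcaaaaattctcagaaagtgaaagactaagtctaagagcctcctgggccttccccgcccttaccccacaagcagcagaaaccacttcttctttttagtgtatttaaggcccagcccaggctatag
The Cybb window held 1 match, on the opposite strand, starting 9 bases past the annotated start, and the windows of Cyba and Ncf1 held 0. Of 32851 promoter windows of this length, 8536 (26.0%) held the motif on either strand. A match is a run of letters and not evidence of a bound site.

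The libraries held 36015134 to 70376474 counts. Transcripts encoded by mitochondrial DNA took 30.3% (high replicate 1) to 64.7% (high replicate 2) of them. Nuclear copies nearly identical to these transcripts took a further 10.9% (high replicate 1) to 23.3% (low replicate 1). This leaves an uneven remainder for other nuclear genes and makes the choice of scale matter. Levels are therefore given as CPM, counts relative to the library size, with that size adjusted by TMM, a scaling that centres the fold changes of most genes. The members had 18 to 779 counts per library. All 5 passed the filter on low counts. Hepatocyte markers were abundant in every library, with albumin (Alb) at 2855 to 33930 CPM. Control replicate 2 stood apart from its group in leukocyte transcripts: Marco, a scavenger receptor of macrophages, had 26.63 CPM there, against 1.03 and 1.52 CPM in the other control livers. High replicate 1 had the lowest mitochondrial share and the highest summed level of the hepatocyte list. Estimates of the members for the mean of the doses are also given without control replicate 2.

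Of the membrane part, Cybb encodes the haem- and flavin-bearing chain that carries the electrons. It had 3.50, 5.24 and 1.96 CPM in the control livers, 2.46, 2.37 and 2.53 CPM at the low dose, 1.98, 2.20 and 1.37 CPM at the medium dose and 4.89, 1.97 and 3.09 CPM at the high dose. Control replicate 2 and high replicate 1 were the highest, the low group was tight, and every curcumin group overlapped the control. Group means ran from control (3.57 ± 1.64 CPM) over high (3.32 ± 1.47 CPM) and low (2.45 ± 0.0757 CPM) to medium (1.85 ± 0.432 CPM; SD, n = 3 each). Of the neighbours in that order, low and medium differed by more than the larger SD and, on the TMM scale, without overlap of libraries. The other neighbours did not. On library totals low and medium overlapped: medium replicate 1 held 128 Cybb counts of 48056706, and low replicate 2 held 85 of 60749638. The share of all genes that keep low and medium apart was not computed. The log2 fold change against control was -0.54 at the low, -0.95 at the medium and -0.10 at the high dose.

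Cyba encodes p22phox, the partner that stabilizes the catalytic chain and docks the organizer. It had 2.34, 4.64 and 2.27 CPM in the control livers, 1.83, 2.21 and 2.45 CPM at the low dose, 1.70, 2.02 and 1.77 CPM at the medium dose and 7.21, 2.18 and 2.66 CPM at the high dose. A single library, high replicate 1, lay far above the rest, and all medium livers lay below all control livers. Means ran from high (4.02 ± 2.78 CPM) over control (3.08 ± 1.35 CPM) and low (2.16 ± 0.31 CPM) to medium (1.83 ± 0.166 CPM; SD, n = 3 each). The low and medium means differed by slightly more than the larger SD with overlapping libraries, and the other neighbours by less than it. Cyba was the only member whose estimate at the high dose lay above the control (log2 fold change 0.39, 95% interval -0.53 to 1.30, edgeR quasi-likelihood test, Benjamini-Hochberg adjusted p = 0.704). Without high replicate 1 the estimate was -0.35.

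Of the cytosolic part, Ncf1 encodes p47phox, the organizer whose phosphorylation starts assembly. It had 2.62, 5.30 and 2.92 CPM in the control livers, 2.73, 2.40 and 1.49 CPM at the low dose, 0.28, 2.40 and 1.87 CPM at the medium dose and 3.32, 1.55 and 1.52 CPM at the high dose. Medium replicate 1 stood out as the lowest value of any member, and the medium group lay wholly below the control. That library held 18 Ncf1 counts (exact Poisson 95% interval 10.67 to 28.45, counting error only), while Cybb, Cyba, Ncf4 and Rac2 in the same library were close to the other medium livers. Group means ran from control (3.61 ± 1.47 CPM) over low (2.21 ± 0.643 CPM) and high (2.13 ± 1.03 CPM) to medium (1.52 ± 1.10 CPM; SD, n = 3 each), and no pair of neighbours differed by more than the larger SD. The log2 fold change at the medium dose was -1.26, and -0.76 without medium replicate 1. Exons of Ncf1 overlap those of Gtf2ird2 on the opposite strand by 408 bases in GENCODE M21, and without strand in the counting their reads there cannot be told apart. Gtf2ird2 had 3.30 CPM in medium replicate 1, its lowest of the 12 libraries (up to 8.32 CPM), and a log2 fold change of 0.00 for curcumin over control (edgeR adjusted p = 0.998).

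Ncf4 encodes p40phox, which holds the complex at phagosomes through a membrane lipid. It had 2.89, 7.24 and 2.52 CPM in the control livers, 2.38, 1.93 and 1.44 CPM at the low dose, 1.81, 2.29 and 1.99 CPM at the medium dose and 1.94, 2.18 and 2.41 CPM at the high dose. All 9 curcumin livers lay below all 3 control livers, by a narrow margin between the highest curcumin liver (2.41 CPM) and the lowest control liver (2.52 CPM). The 9 curcumin livers averaged 2.04 ± 0.31 CPM (SD, n = 9) and the control livers 4.22 ± 2.62 CPM (SD, n = 3). The curcumin groups were level with each other, with means of 1.92, 2.03 and 2.18 CPM from low to high dose. The gap of 2.04 CPM between the control and the high group was smaller than the SD of the control group, and the gaps between the doses were smaller than their SDs.

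Rac2 encodes the Rac GTPase of blood cells, which as GTP-bound switch completes the oxidase and also drives the actin skeleton. It had 7.90, 9.67 and 3.99 CPM in the control livers, 4.33, 3.85 and 2.90 CPM at the low dose, 4.65, 3.75 and 3.50 CPM at the medium dose and 5.98, 4.18 and 4.90 CPM at the high dose. Control replicate 3 lay within the range of the curcumin livers, and control replicates 1 and 2 lay above all of them. Means ran from control (7.19 ± 2.91 CPM) over high (5.02 ± 0.907 CPM) and medium (3.97 ± 0.602 CPM) to low (3.70 ± 0.728 CPM; SD, n = 3 each). The high and medium means differed by more than the larger SD, although their libraries overlapped. Its widely expressed relative Rac1, which can serve the same oxidase, had 14.87 to 43.19 CPM and a log2 fold change of 0.43 for curcumin over control (SE 0.27, edgeR adjusted p = 0.613).

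**Figure D1:**
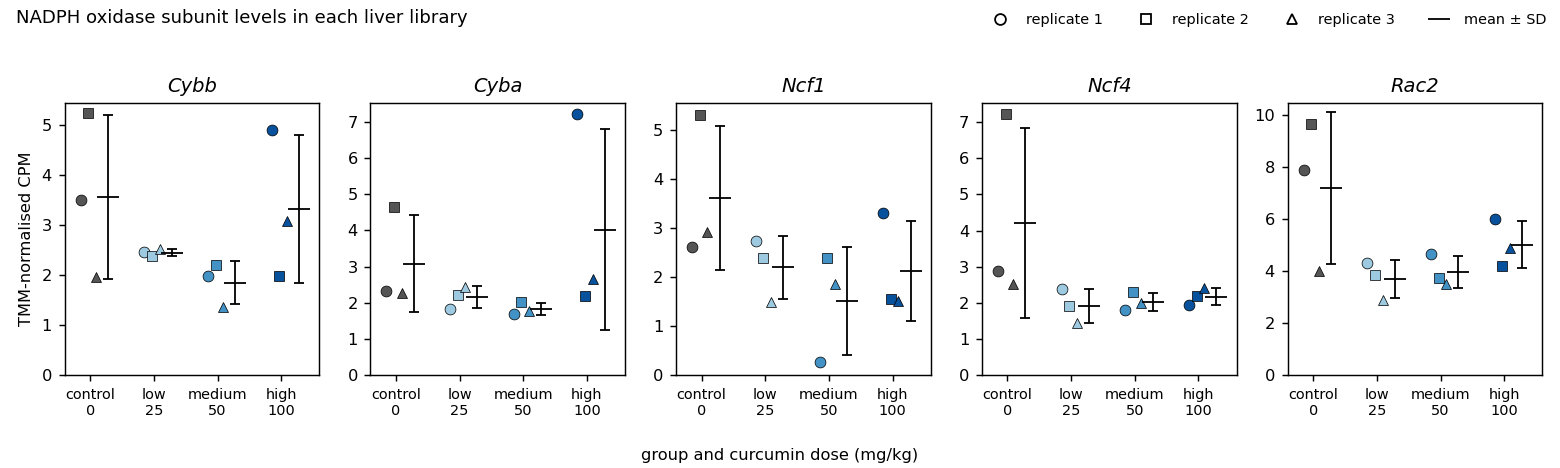
TMM-normalised CPM of each subunit gene (vertical axis) in the 12 liver libraries, by group and curcumin dose in mg/kg (horizontal axis). Each symbol is 1 liver, its shape gives the replicate number, and the bar beside each group is the mean ± SD (n = 3). Control replicate 2 was the highest library for every gene but Cyba, where high replicate 1 reached 7.21 CPM, and Ncf1 in medium replicate 1 was the lowest point at 0.28 CPM.

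Control replicate 2 was the highest of the 12 libraries for Cybb, Ncf1, Ncf4 and Rac2. The highest library exceeded the lowest by 3.83-fold for Cybb, 4.24-fold for Cyba, 5.01-fold for Ncf4 and 3.33-fold for Rac2, and by 19.0-fold for Ncf1 because of medium replicate 1. Per kilobase of merged exons, the only scale on which the genes can be set against each other, Cyba had the highest mean level over the 12 livers (2.67 CPM per kilobase), followed by Rac2 (1.60 CPM per kilobase), Ncf4 (1.28 CPM per kilobase), Ncf1 (0.646 CPM per kilobase) and Cybb (0.482 CPM per kilobase). The catalytic subunit was thus the lowest of the 5 transcripts per length and its membrane partner the highest.

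Curcumin at any dose was then set against CCl4 alone in 1 model over all 16839 genes that passed the filter. The 5 members all had estimates below the control, with log2 fold changes for the mean of the 3 doses of -1.06 for Ncf4 (SE 0.29, 95% interval -1.68 to -0.43), -0.91 for Ncf1 (SE 0.46), -0.78 for Rac2 (SE 0.24, 95% interval -1.30 to -0.26), -0.53 for Cybb (SE 0.31) and -0.29 for Cyba (SE 0.34). None passed the threshold of 0.05 (edgeR quasi-likelihood test, Benjamini-Hochberg adjusted p = 0.306 for Ncf4, 0.561 for Ncf1, 0.327 for Rac2, 0.583 for Cybb and 0.795 for Cyba). Among all genes 49.1% had an estimate below the control, and the median was 0.01, against -0.78 for the members. The share of genes called lower was 0%, and 5.24% of genes were lower at an unadjusted p under 0.05, as were Ncf4 and Rac2. Groups that did not overlap, with all 9 curcumin livers below all 3 control livers, were found for 1.2% of genes and 1 member, Ncf4.

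The size of these estimates depended on control replicate 2. Without it the log2 fold changes were -0.41 for Ncf4, -0.50 for Rac2, -0.52 for Ncf1, -0.14 for Cybb and 0.13 for Cyba. The direction of the first 4 was kept and that of Cyba was not. On plain library totals, a scale that moved the median of all genes to 0.42, the estimates were -0.74 for Ncf4, -0.43 for Rac2, -0.57 for Ncf1, -0.12 for Cybb and 0.15 for Cyba, and the libraries of every member overlapped between the groups.

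By single dose, all of which share the same 3 control livers, the members differed in pattern. At the low dose 5 of 5 estimates lay below the control (48.9% of all genes did), led by Ncf4 at -1.15 and Rac2 at -0.97, and Ncf4 was the 1 member without overlap, against 6.36% of genes. At the medium dose 5 of 5 again lay below (48% of all genes), from -0.75 for Cyba to -1.26 for Ncf1, and Cyba, Ncf1 and Ncf4 did not overlap the control, against 6.38% of genes. At the high dose 4 of 5 lay below (47.8% of all genes), Ncf4 at -0.96 was the 1 member without overlap, against 6.52% of genes, and Rac2 was at -0.52, Cybb at -0.10 and Cyba at 0.39. Without control replicate 2 the estimates from low to high dose were -0.51, -0.41 and -0.315 for Ncf4 and -0.69, -0.58 and -0.24 for Rac2. On library totals, no member was free of overlap at any dose. On totals without mitochondrial genes and their copies, Cyba and Ncf4 lay below the control without overlap at the low dose. Cyba, Ncf4 and Rac2 did so at the medium dose, and Ncf1 and Ncf4 at the high dose. The shares of all genes given above are on the TMM scale. They were not computed on these other scales, so these member counts have no share to be read against. No gene was called at any dose by edgeR, where 1008 genes had an unadjusted p under 0.05 at the low, 940 at the medium and 2152 at the high dose. Adjusted p-values of the members ran from 0.780 to 0.876 at the low, 0.729 to 0.997 at the medium and 0.377 to 0.926 at the high dose (edgeR, Benjamini-Hochberg). Genes lower at an unadjusted p under 0.05 were 3.5% at the low dose (members Ncf4 and Rac2), 2.99% at the medium dose (Ncf4, Rac2 and Cybb) and 4.91% at the high dose (Ncf4). DESeq2 called 42, 89 and 172 genes from low to high dose and limma voom 0, 35 and 224, none of them a member.

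**Figure D2:**
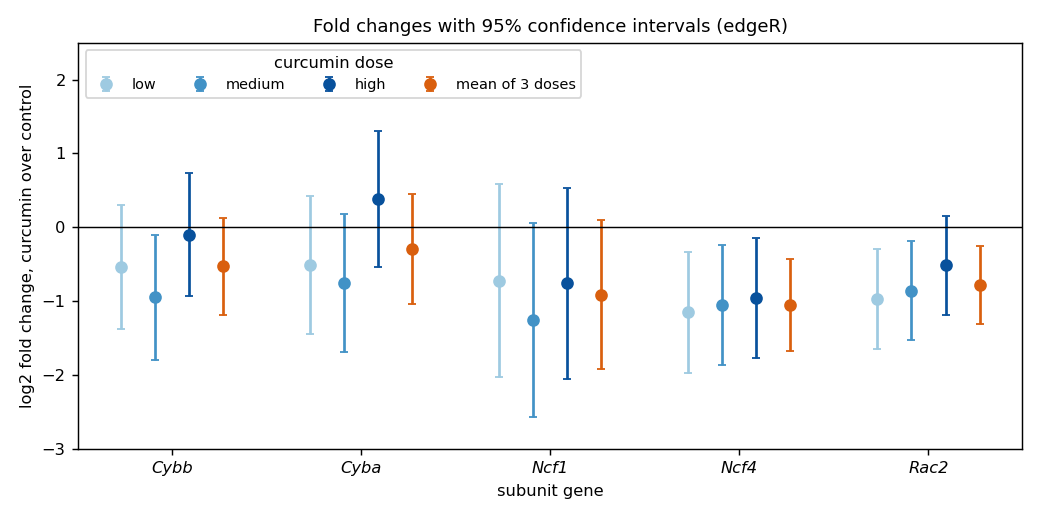
Log2 fold change of curcumin over control (vertical axis) for each subunit gene (horizontal axis), at each dose and for the mean of the 3 doses, from the edgeR fit over 12 libraries; whiskers are 95% confidence intervals. Ncf4 lay between -0.96 and -1.15 at every dose (-0.51, -0.41 and -0.315 from low to high without control replicate 2), while Cybb and Cyba were nearest to 0 or above it at the high dose (-0.10 and 0.39).

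Whether the doses differ among themselves was asked with an F test and a slope. Cyba gave the smallest p among the doses (edgeR quasi-likelihood F test, Benjamini-Hochberg adjusted p = 0.986, 0.0407 before adjustment), with medium lowest and high replicate 1 highest. Without high replicate 1 its unadjusted value was 0.480, and with any other 1 library left out it was 0.00906 to 0.0760. Unadjusted values of the same test were 0.129 for Cybb, 0.338 for Rac2, 0.636 for Ncf1 and 0.878 for Ncf4. Across all genes 0 were called and 3.65% had an unadjusted p under 0.05. Over a range of 100 mg/kg the fitted slopes were -0.78 for Ncf4 (95% interval -1.63 to 0.06), -0.68 for Ncf1, -0.35 for Rac2, -0.02 for Cybb and 0.48 for Cyba on the log2 scale, with edgeR adjusted p from 0.472 to 0.985. The slopes of 4 of 5 members were thus below 0, as for 47.6% of all genes, and no member had an unadjusted p under 0.05, against 4.49% of genes with a slope below 0. A p above the threshold does not show that doses act alike, and the interval of the Cyba slope, -0.42 to 1.39, reached to both sides of 0.

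The ratios between subunits differed in how steady they were. Of the 10 pairs of members, Cybb and Cyba kept the steadiest log2 ratio over the 12 livers (SD 0.32), followed by Ncf4 and Rac2 (SD 0.34) and Cybb and Rac2 (SD 0.35). Across these pairs, Cyba against Rac2 had an SD of 0.52, Cybb against Ncf4 of 0.53 and Cyba against Ncf4 of 0.66. Pairs with Ncf1 had SDs of 0.83 to 0.93, owing to medium replicate 1, where its log2 ratio to Rac2 was -3.90. The ratio of Cyba to Ncf4 was -0.30, -0.64 and -0.15 in the control livers, -0.37, 0.19 and 0.75 at the low dose, -0.09, -0.18 and -0.16 at the medium dose and 1.88, 0.00 and 0.14 at the high dose (log2 of CPM with a prior count of 2). All high livers lay above all control livers in this ratio, narrowly at 0.00 against -0.15, and low replicate 3 and high replicate 1 were the highest 2 of the 12 livers. The ratio of Cyba to Ncf1 also kept these groups apart, with 0.49 to 1.11 in the high and -0.36 to -0.16 in the control livers. In the other pairs of members the high and control livers overlapped. None of these ratios was tested, and how often ratios of other genes keep these groups apart was not counted. Against the pan-leukocyte gene Ptprc (CD45), Ncf4 had the smallest SD of the members (0.37), then Rac2 (0.42), Cybb (0.57), Cyba (0.73) and Ncf1 (1.05). These SDs share libraries and take in counting error, and are given as a description.

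**Figure D3:**
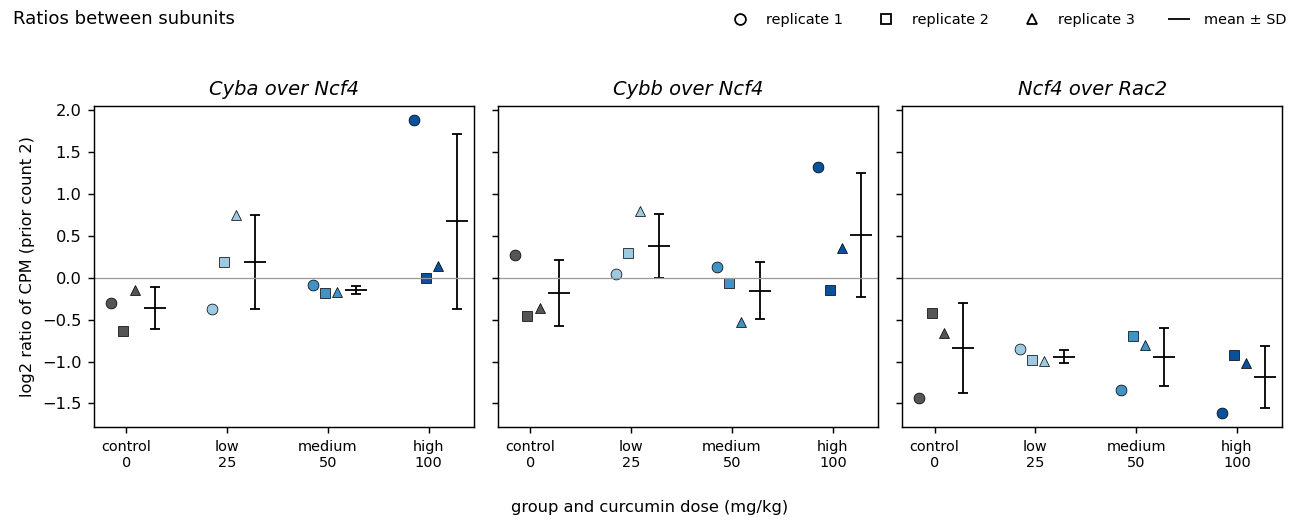
Log2 ratio of CPM (vertical axis, prior count 2) of Cyba over Ncf4, Cybb over Ncf4 and Ncf4 over Rac2 in the 12 libraries, by group and curcumin dose in mg/kg (horizontal axis). Symbols are single livers, and bars are the mean ± SD (n = 3). Cyba over Ncf4 reached 1.88 in high replicate 1 while Ncf4 over Rac2 stayed between -1.61 and -0.42.

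Other genes that kept close to a member were ranked by the SD of their log2 ratio to it over the 12 livers, among the 9101 genes whose mean log2 CPM was 1 or more. Nearest to Ncf4 were Arhgap27 (SD 0.17), a GTPase-activating protein, Pik3cd (SD 0.18), the leukocyte PI3-kinase catalytic subunit, and Lilr4b (SD 0.20), an inhibitory receptor of myeloid cells. Nearest to Rac2 were Plac8 (SD 0.25), Prex1 (SD 0.25), an exchange factor for Rac, and Itga4 (SD 0.26), an integrin of leukocytes. Nearest to Cybb were the hyaluronan receptor Cd44 (SD 0.21), the Fc receptor gamma chain Fcer1g (SD 0.26) and Marcks (SD 0.27). Nearest to Cyba were Lgals3 (SD 0.26), the galectin of activated macrophages, Ppp1r9b (SD 0.31) and Zfp385a (SD 0.31). Nearest to Ncf1 were Ndst1 (SD 0.51), Arnt (SD 0.51) and Tnip1 (SD 0.64), all wider than the nearest genes of the other members. The SDs of Ncf1 take in medium replicate 1, where it had 18 counts, and no ranking was made without that library. Among each other the members ranked high only in part: Cybb was the gene of rank 5 for Cyba, Cyba of rank 11 and Rac2 of rank 24 for Cybb, Ncf4 of rank 36 and Cybb of rank 49 for Rac2 and Rac2 of rank 59 for Ncf4. The remaining ranks ran from 155 (Ncf4 for Ncf1) to 8192 (Ncf1 for Rac2) of the 9101 genes. Ncf1 ranked 6746 or further down for every other member, Ncf4 ranked 3400 for Cyba, and Cyba ranked 3629 for Ncf4.

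Partners and regulators of the oxidase outside the 5 members were counted next. Of 10 listed genes 8 had estimates below the control for the mean of the doses and 2 above, with a median log2 fold change of -0.59 (-0.55 without Slamf1, which had a group at 0) beside 0.01 for all genes, and 0 were called by edgeR. Prkcb, a protein kinase C that phosphorylates p47phox, was at -0.71 and Prkcd, another, at -0.55. The chaperone of the membrane heterodimer, Cybc1, was at -0.13. The proton channel Hvcn1, which balances the charge moved by the oxidase, was at -0.62. Its mean at the high dose (1.46 CPM) was nonetheless above that of the control (1.35 CPM). Without control replicate 2 the count was 6 below and 4 above, with a median of -0.11.

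Slamf8, the receptor named in the title of the series, was near the limit of detection. It had 0.83, 0.82 and 0.31 CPM in the control livers, 0.23, 0.34 and 0.26 CPM at the low dose, 0, 0.15 and 0.23 CPM at the medium dose and 0.32, 0.49 and 0.21 CPM at the high dose, from 0 to 54 counts. Control replicates 1 and 2 lay above all curcumin livers and control replicate 3 did not. Its log2 fold change was -1.50 (SE 0.65, edgeR adjusted p = 0.515). Slamf1, a relative known to support the oxidase in mouse phagocytes, had 0 counts in 7 of 12 libraries, among them all 3 of the high dose, and no fold is given.

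Upstream of assembly, 12 of 15 listed receptors and proximal signalling genes had estimates below the control for the mean of the doses. The list is not confined to genes that trigger the oxidase. The median of the 15 was -0.78, and 0 were called (edgeR). Those with the smallest p were Itgb2 (-1.12), the common chain of the phagocyte integrins, the kinases Syk (-0.93) and Btk (-1.19), and the phospholipase Plcg2 (-0.89). The Fc receptor genes Fcgr2b, Fcgr3 and Fcgr4 were the 3 above, at 0.23, 0.01 and 0.18. Without control replicate 2 the count was 12 of 15 below with a median of -0.24.

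Around Rac2, 8 of 9 exchange factors, inhibitors and effectors had estimates below the control, with a median of -0.77 and 0 called by edgeR, against 2 called lower by DESeq2 and 2 by limma voom. Dock2, the main Rac exchange factor of leukocytes, was at -1.15 (SE 0.25, adjusted p = 0.235), Was, which turns GTPase signals into actin branching, at -1.20, Coro1a at -0.77 and Vav1 at -0.83. Dock2 had 4.10, 6.21 and 2.99 CPM in the control livers, 2.30, 2.77 and 1.46 CPM at the low dose, 2.00, 2.20 and 2.60 CPM at the medium dose and 1.90, 1.78 and 1.22 CPM at the high dose. As with Ncf4, all 9 curcumin livers lay below all 3 control livers on the TMM scale, here with a wider margin. This was so for 1.2% of all genes, and Dock2 was named for its small p. On library totals the groups overlapped: control replicate 3 held 134 Dock2 counts of 64761176, and high replicate 1 held 205 of 61857700. The list held 8 of 9 below, with a median of -0.38, without control replicate 2.

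Transcription factors of myeloid genes were mixed. Spi1, which encodes PU.1, had 3.67, 6.30 and 2.76 CPM in the control livers, 2.11, 2.32 and 2.77 CPM at the low dose, 1.73, 1.90 and 1.98 CPM at the medium dose and 3.77, 2.54 and 2.04 CPM at the high dose. The medium group lay wholly below the control, as for 6.38% of all genes, while the low and high groups overlapped it. The log2 fold change for the mean of the doses was -0.87 (SE 0.25, edgeR adjusted p = 0.317). Irf1 was at -0.76 and Irf8 at -0.54, Cebpa at -0.03, Cebpe at -0.06 and Cebpb at 0.29, so that 5 of 6 lay below with a median of -0.30 (5 of 6 and -0.24 without control replicate 2).

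Genes that remove superoxide and peroxide had the opposite sign. All 13 had estimates above the control for the mean of the doses, with a median of 0.76, and 0 were called (edgeR adjusted p of 0.558 for Sod1). Those with the smallest p were Sod1 (1.28), the cytosolic superoxide dismutase, Prdx3 (0.81), Gpx4 (0.88) and Prdx2 (0.88). Without high replicate 1, 12 of 13 lay above with a median of 0.48. Their summed level was 765, 648 and 501 CPM in the control livers, 541, 808 and 1564 CPM at the low dose, 1492, 661 and 649 CPM at the medium dose and 2658, 445 and 1412 CPM at the high dose. The libraries highest in this sum, low replicate 3, medium replicate 1 and high replicates 1 and 3, were also the 4 highest in the summed hepatocyte markers, at 35500, 27650, 49190 and 30680 CPM, against 5891 to 12800 CPM in the other libraries. The part of hepatocyte RNA in the result was not tested.

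**Figure D4:**
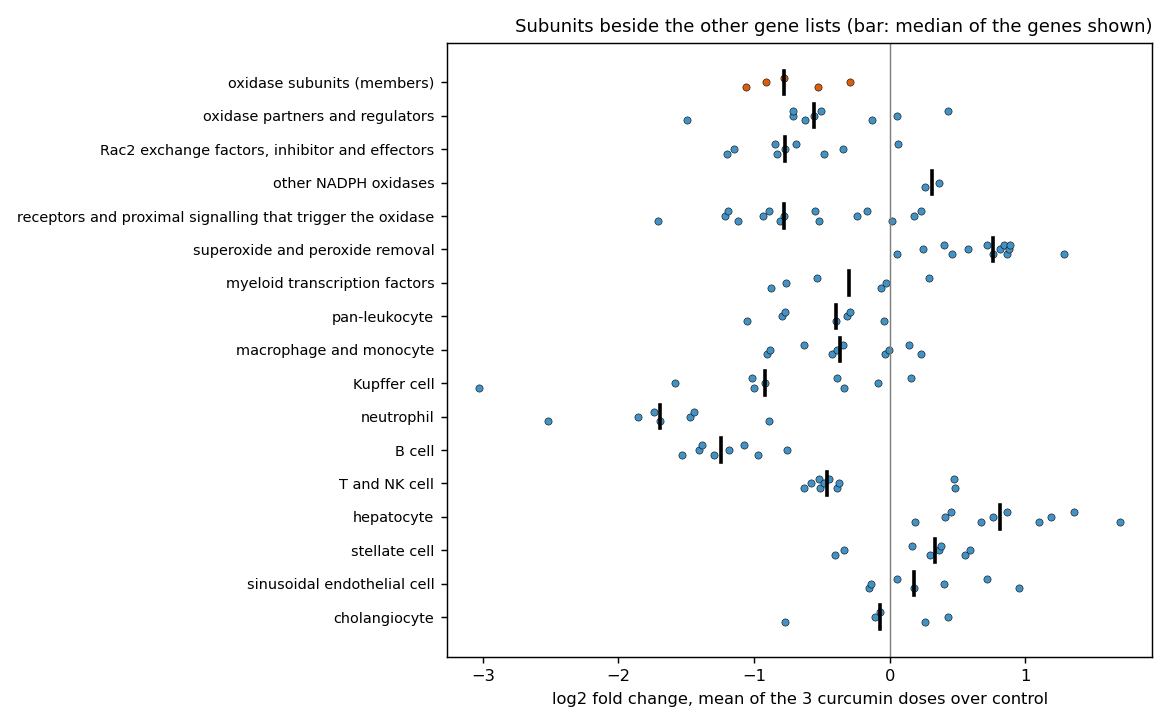
Log2 fold change for the mean of the 3 curcumin doses over control (horizontal axis) of the members and of 16 gene lists (rows); each point is 1 tested gene and the bar is the median of the genes shown. Genes with a group in which all 3 libraries had 0 counts (Nox1, Slamf1, Ltf and Ngp among those tested) are not drawn. The members (median -0.78) lay on the side of the neutrophil, B cell and Kupffer cell lists and opposite to hepatocyte and peroxide-removing genes.

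The members are mainly transcripts of leukocytes, Cyba being expressed more widely, and in whole liver fewer such cells and less RNA per cell cannot be told apart. Marker genes of the cells that carry the oxidase had estimates mostly below the control for the mean of the doses, but not in every list at the high dose. Of the neutrophil list 9 of 13 markers were tested, and all 9 had estimates below the control, with a median of -1.74 (-1.69 without Ltf and Ngp, which had a group at 0). Its summed level was 10.9 to 41.1 CPM in the control livers, with control replicate 2 the highest, 6.48 to 7.91 CPM at the low, 4.99 to 9.33 CPM at the medium and 6.16 to 8.27 CPM at the high dose. Some defining neutrophil markers were at or near 0: Elane had 0 counts in all 12 libraries, and Ly6g and Camp had 0 in 10 of 12, while S100a9 had 1.46 to 10.1 CPM and Csf3r 1.78 to 19.1 CPM. Of the Kupffer cell list 8 of 9 lay below, with a median of -0.92, and its summed level was 70.9 to 166 CPM in the control livers, 52.6 to 67.4 CPM at the low, 55.7 to 64.9 CPM at the medium and 74.2 to 93.6 CPM at the high dose. Of the macrophage and monocyte list 8 of 10 lay below (median -0.37), and the summed level was 31.3 to 87.9 CPM in the control livers, 32.7 to 43.5 CPM at the low, 29.9 to 41.3 CPM at the medium and 38.8 to 94.0 CPM at the high dose. High replicate 1 gave the 94.0 CPM, and was also the library with the highest Cyba. All 7 pan-leukocyte markers lay below (median -0.40), with sums of 41.0 to 91.4 CPM in the control livers, 39.4 to 47.6 CPM at the low, 39.9 to 44.9 CPM at the medium and 40.0 to 55.7 CPM at the high dose. At the high dose 9 of 9 neutrophil, 6 of 9 Kupffer cell, 4 of 10 macrophage and monocyte and 6 of 7 pan-leukocyte markers lay below, with medians of -1.44, -0.73, 0.17 and -0.10. None of these genes was called by edgeR for the mean of the doses, where DESeq2 called 2 neutrophil and 3 Kupffer cell markers lower, and their part in the members' values was not tested.

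These marker counts moved with control replicate 2 and with the scale, as the members did. Without that library 8 of 9 neutrophil, 6 of 9 Kupffer cell, 4 of 10 macrophage and monocyte and 6 of 7 pan-leukocyte markers lay below the control, with medians of -0.76, -0.48, 0.06 and -0.23. On library totals the neutrophil count stayed at 9 of 9 (median -1.32) and the Kupffer cell count was 7 of 9 (median -0.57), but the macrophage and monocyte markers were split 5 to 5 (median 0.04) and the pan-leukocyte markers 3 below to 4 above (median 0.05), beside 0.42 for all genes.

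**Figure D5:**
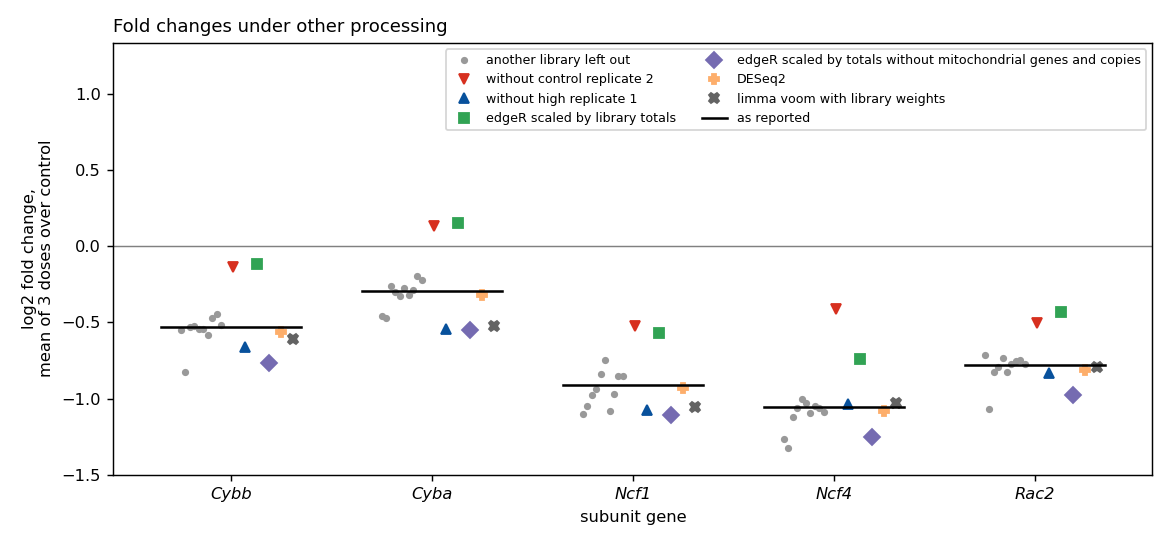
Log2 fold change for the mean of the 3 curcumin doses over control (vertical axis) of each subunit gene (horizontal axis) as reported (line) and under other scalings, tools and left-out libraries (symbols; grey points leave out 1 of the 10 libraries not named in the legend). Leaving out control replicate 2 and scaling by library totals gave the values nearest to 0, or past it, of those drawn, with Cyba at 0.13 and 0.15.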

How the data were processed

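Per the labels' protocols, total RNA of liver was extracted with TRIzol and made into libraries with a Hieff kit. The deposited values are raw counts per Ensembl gene, not normalized by the authors, in 12 columns that each match a label. The submitters' processing notes name fastp 0.23.4, STAR 2.7.10b, StringTie 2.2.1 and build mm39; the counting step, its use of strand and its handling of multi-mapping reads are not given in the sources used here. GENCODE M21 gave symbols for 52073 of 56923 IDs (91.5%); it is an annotation of another build that was used for names and merged exon lengths. Promoter sequences are from RefSeq (GRCm38.p6).

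The counts were fitted in R 4.3.3 with edgeR 4.0.16 (filterByExpr, TMM, robust quasi-likelihood, 12 libraries in 1 model with their groups; dose as a linear term for the slope), checked on simulated data, with Benjamini-Hochberg adjustment over 16839 genes and a threshold of 0.05. The p-values set group differences against the spread between mice, and cannot tell group from cage where these coincide. Alternatives were DESeq2 1.42.0, limma 3.58.1 voom with library weights, library totals, totals without mitochondrial genes and their 11 near-identical nuclear copies (BLAST+ 2.17.0; identity at least 95% over 80% of the length), all genes with a count, a replicate block, a prior count of 0.5, each library left out and, chosen after seeing the data, control replicate 2 and high replicate 1 left out together. No member had a near-identical copy.

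The members, the 16 gene lists and the tests were chosen with earlier results of these data known. Named genes are the 5 members, the partners and regulators, the 3 genes most like each member, and up to 4 genes of each other list with the smallest p; Gtf2ird2, Ptprc, the Fc receptor genes, the remaining myeloid factors and oxidases and all single cell type markers were named after their values were seen. A listed item is not reported here.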

Additional observations from a re-analysis of the deposited data

How the results depend on the processing

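No member was called under any alternative. Of 570 recomputed values of members, 457 were log2 fold changes that kept their direction. A further 95 were p-values of the F test among the doses, which have no direction and stayed above the threshold after adjustment. The other 18 were log2 fold changes that changed sign, and the cause was not tested. For the high dose against control, Cybb turned to 0.67 and Rac2 to 0.17 on library totals, and Cyba to -0.074 on totals without mitochondrial genes and copies and -0.16 by limma voom. Single libraries left out there gave -0.49 (high replicate 1) to 0.29 (control replicate 2) for Cybb, with 0.16 for high replicate 2, and -0.35 (high replicate 1) to 0.81 (control replicate 2) for Cyba. For the mean of the doses, Cyba turned to 0.15 on library totals, a scale on which the median of all genes lay higher still. With 1 library left out it ranged from -0.54 (high replicate 1 left out) to 0.13 (control replicate 2 left out). For the slope on dose, Cybb turned to 0.78, Ncf1 to 0.14 and Rac2 to 0.39 on library totals, Cybb to 0.014 with all genes and Cyba to -0.053 by limma voom. With 1 library left out the slope ranged from -0.53 (high replicate 1) to 0.37 (control replicate 2) for Cybb, with 0.068 for control replicate 1 and 0.12 for high replicate 2, and from -0.36 (high replicate 1) to 0.92 (control replicate 2) for Cyba. Leaving out 1 library at a time gave -1.32 to -0.41 for Ncf4 and -1.07 to -0.50 for Rac2 over the mean of the doses. The SDs of the ratios between members moved little under both other scales and a prior count of 0.5 (Ncf1 over Rac2, the widest, was 0.96 at that prior count and 0.93 as reported).

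The number of genes called, 0 by edgeR in all 6 comparisons, depended on the tool. DESeq2 called 42 at the low, 89 at the medium and 172 at the high dose, 165 for the mean of the doses, 67 for the slope and 16 among the doses, and limma voom called 35 at the medium dose, 224 at the high dose and 66 for the mean of the doses. For the mean of the doses 3 genes were called with all genes tested and 1 without both control replicate 2 and high replicate 1. With single libraries left out the counts were 0 to 2 at the low dose, 0 to 1 for the mean of the doses and 0 to 4 among the doses. Whether replicate numbers pair the mice cannot be told from the correlations of the libraries' deviations. Of 18 pairs with the same number 5 had correlated deviations over 0.1 (-0.26 to 0.45). Pairs with different numbers ranged from -0.48 to 0.35. With the number as a replicate block, edgeR called 0 genes in all comparisons and Ncf4 was at -0.95 for the mean of the doses. The libraries' floor of 3 counts was 0.0426 to 0.0833 CPM before TMM, which limits Slamf8 and the neutrophil markers and not the members.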

Other observations

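Of the remaining cell types, B cell markers lay furthest below the control: all 8 had estimates below the control for the mean of the doses, with a median log2 fold change of -1.24 (-0.77 without control replicate 2, again 8 of 8), and 0 were called by edgeR, 2 by DESeq2 and 3 by limma voom. Their summed level was 23.7 to 51.8 CPM in the control livers, 7.90 to 21.8 CPM at the low, 14.3 to 19.8 CPM at the medium and 8.95 to 13.7 CPM at the high dose, so that no curcumin liver reached the control range. T and NK cell markers lay below for 8 of 10 genes (median -0.47), from sums of only 3.28 to 9.34 CPM. Hepatocyte markers lay above for 10 of 10 genes (median 0.81). Stellate cell markers lay above for 6 of 8 (median 0.33; 5 of 8 and 0.08 without high replicate 1), with sums of 44.4 to 208 CPM at the high dose, against 47.7 to 60.2 CPM in the control livers. Sinusoidal endothelial markers lay above for 5 of 7 (median 0.18) and cholangiocyte markers for 2 of 5 (median -0.07).

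Of the other NADPH oxidases, Nox4, the form of stellate cells and hepatocytes, was the one with an appreciable level. It had 7.90, 3.82 and 7.67 CPM in the control livers, 5.42, 8.24 and 12.40 CPM at the low dose, 8.70, 6.66 and 5.57 CPM at the medium dose and 15.78, 4.25 and 7.95 CPM at the high dose, with a log2 fold change of 0.36 for the mean of the doses (SE 0.38, edgeR adjusted p = 0.768). All curcumin groups overlapped the control. Of the 9 genes listed, Nox4 among them, 3 passed the filter. Nox3, Duox1 and Duoxa1 had 0 counts in every library, and Nox1 had at most 23 counts and 0 in 7 of 12 libraries.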
